A study of Chlamydomonas reinhardtii with 2 samples.

Results

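Of 17147 gene loci in the deposited expression table of Chlamydomonas reinhardtii, a unicellular green alga, 12 carried the words tRNA synthetase or tRNA ligase in their annotation, and these 12 are described here. The table compares 2 RNA sequencing libraries of wild-type strain CC-1690, also called 21gr. One culture spent 24 h in acetate medium containing 1.1 mM phosphate (phosphate replete), and the other spent 24 h in that medium with no phosphate added (phosphate deprived). Both were lit continuously at 70 µmol of photons per square metre per second and shaken at 200 rpm and 25 °C. Each condition had 1 library, so no value has a replicate error, no test between the conditions was possible, and every difference below is one between these 2 libraries.

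Aminoacyl-tRNA synthetases join each amino acid to its tRNA, the step that makes the substrates of the ribosome. They fall into 2 unrelated families by the fold of the catalytic domain. Class I enzymes charge tRNAs for valine, cysteine, glutamate and glutamine among others, and class II enzymes those for aspartate, lysine, serine and proline among others. An alga makes protein in the cytosol, the plastid and the mitochondrion, and nuclear genes supply the synthetases of all 3 places, some of them shared between organelles.

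The matched genes were mostly lower in the phosphate-deprived library. They name only some of the amino acids, so genes of other synthetases may stand in the table under other text, and statements here are about the 12 matched loci. Values are RPKM, reads scaled to transcript length and library size, and folds are log2 of deprived over replete after 1 RPKM was added to both, so that folds of weakly expressed genes are understated. All 12 genes passed the filter of a mean RPKM of at least 1, as did 13855 of all genes. Of the 12, 11 had a log2 fold below 0, against 38% of all measured genes (62% of all genes were above 0). At least 2-fold lower were 2 of the 12, the lysyl-tRNA synthetase gene Cre03.g160500 and PRORS1, against 1.64% of all measured genes, and 0 of the 12 were at least 2-fold higher, against 5.59%. The median log2 fold of the 12 genes was -0.41 and that of all measured genes 0.14. Summed over the 12 genes the level was 339 RPKM with phosphate and 226 RPKM without it, 66.6% of the replete value, while the sum over all genes in the deprived library was 94.9% of that in the replete one.

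**Figure D1:**
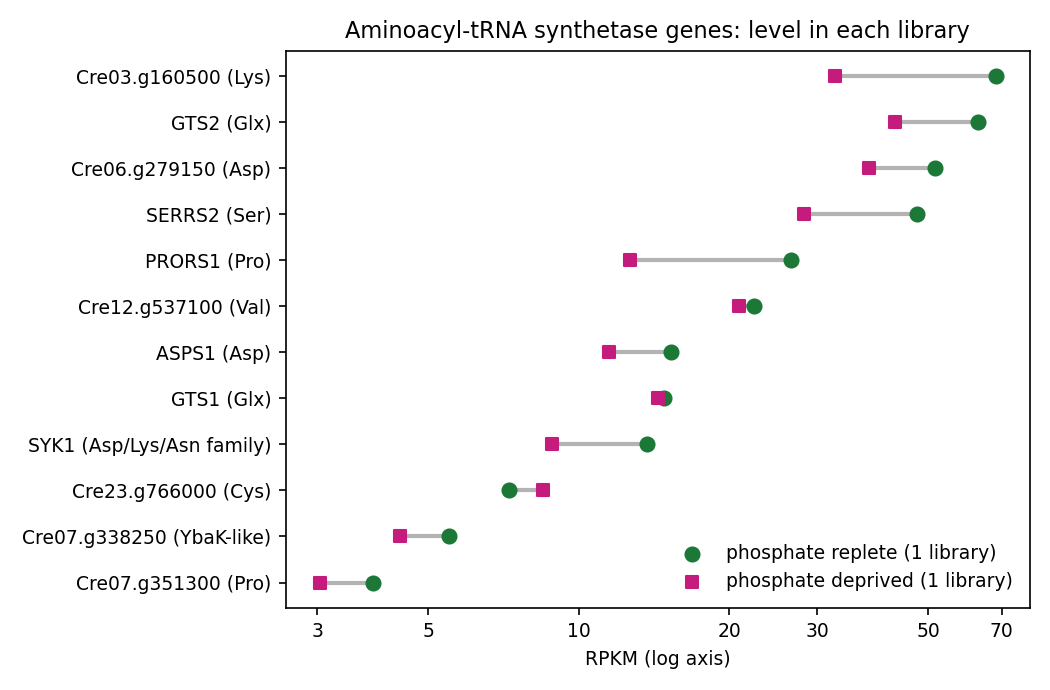
RPKM of the 12 synthetase genes on a log axis, with a circle for the phosphate-replete and a square for the phosphate-deprived library (1 library each) and genes ordered by their replete level. The square lies to the left of the circle for 11 genes and to the right for the cysteinyl gene Cre23.g766000, and the longest lines are those of Cre03.g160500 and PRORS1.

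Scaling the deprived library by a common factor moves all these folds in the same direction, while quantile matching moves genes by differing amounts. As deposited, 775 genes were higher and 227 lower by 2-fold or more, so that higher genes made up 77.3% of the 2-fold different genes. Giving both libraries equal medians made this share 53.9% (503 and 430), a trimmed-mean factor made it 56.5% (518 and 399), quantile matching 56.4% (512 and 395) and equal RPKM sums 83.1% (905 and 184). These steps shifted the median of all genes by -0.17, -0.15, -0.17 and 0.06 on the log2 scale. The median of the synthetase genes lay below that of all genes by each of them, with a difference of -0.55 as deposited and between -0.58 and -0.51 after the 4 scalings. Equal medians, the trimmed-mean factor and equal sums multiply every deprived value by the same factor, so they could hardly change this difference. Quantile matching, which could change it, gave -0.51.

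The 5 genes with the highest replete level held 75.6% of the summed synthetase RPKM with phosphate and 68.4% without it. Choosing genes by their replete level favours a lower share in the other library, so this fall is not read as a result. The lysyl-tRNA synthetase gene Cre03.g160500, annotated as similar to the mammalian enzyme, had 68.2 RPKM with phosphate, the highest level of the 12, and 32.5 RPKM without it. Its log2 fold of -1.04 was the lowest of the 12, and 1.44% of all measured genes had a lower one. In the deprived library it ranked after GTS2 and the aspartyl gene Cre06.g279150.

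Class II held the lower folds. Its 7 genes had a median log2 fold of -0.58 and all 7 were below 0, while the 4 class I genes had a median of -0.07 with 3 below 0 (2 with equal RPKM sums), beside 38% of all measured genes below 0 as deposited, 33.2% with equal sums and 50.3% to 52.5% by the other scalings. The class I median was 0.0026 with equal RPKM sums and between -0.27 and -0.23 after the other 3 scalings, whereas that of class II was -0.51 with equal sums, between -0.77 and -0.74 by the other 3, and -0.44 with a pseudocount of 5 RPKM. The classes overlapped, since the class I gene GTS2 had a lower fold than 3 of the class II genes. The remaining member, Cre07.g338250, is annotated as YbaK/prolyl-tRNA synthetase-like and was put in neither class. In bacteria YbaK is a free-standing editing protein that removes cysteine wrongly attached to proline tRNA, not a charging enzyme. Without it, 10 of 11 genes were below 0 and the median was -0.43. This gene had 5.49 RPKM with phosphate and 4.39 RPKM without it (log2 fold -0.27).

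Proline was represented by a strongly and a weakly expressed gene. PRORS1, annotated as an organellar class II synthetase for proline, had 26.6 RPKM with phosphate and 12.7 RPKM without it, a log2 fold of -1.01. In Arabidopsis the protein of this name serves both plastids and mitochondria. The other prolyl-tRNA synthetase gene, Cre07.g351300, was the weakest of the 12 with 3.88 RPKM with phosphate and 3.03 RPKM without it (log2 fold -0.28). PRORS1 was thus 6.85 times as abundant as Cre07.g351300 in the replete library and 4.19 times in the deprived one. The approximate counting intervals of their log2 ratios, described below, overlapped (-1.35 to -0.81 for PRORS1 and -1.01 to 0.27 for Cre07.g351300).

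Aspartate was also represented by a pair of genes, and here the ratio was nearly the same in both libraries. Cre06.g279150, annotated as a eukaryote-like enzyme that is probably cytosolic, had 51.5 RPKM with phosphate and 37.99 RPKM without it (log2 fold -0.43). ASPS1, annotated as similar to prokaryotic enzymes and possibly mitochondrial, had 15.3 RPKM with phosphate and 11.5 RPKM without it (log2 fold -0.39). The cytosolic-type gene exceeded ASPS1 by a factor of 3.36 with phosphate and 3.31 without it. SYK1, annotated only as a member of the class II family for aspartate, lysine and asparagine, had 13.7 RPKM with phosphate and 8.83 RPKM without it (log2 fold -0.58).

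SERRS2 codes for a seryl-tRNA synthetase, and its annotation names no place in the cell. Such enzymes charge serine tRNA and can also charge the tRNA on which selenocysteine is made. Whether the SERRS2 enzyme has this 2nd role is not known from the annotation. SERRS2 had 47.4 RPKM with phosphate and 28.2 RPKM without it, a log2 fold of -0.73. The later selenocysteine steps were chosen for their role after their values were seen. SPCS, the selenocysteine synthase gene, had 3.98 and 3.86 RPKM (log2 fold -0.03), and Cre06.g259200, annotated as the selenocysteine-specific elongation factor, had 9.79 and 11.4 RPKM (log2 fold 0.20).

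GTS1 and GTS2 are both annotated as non-discriminating synthetases for glutamate and glutamine tRNAs. Such enzymes attach glutamate to both tRNAs, and an amidotransferase then converts the glutamate on glutamine tRNA into glutamine, the route used in plastids. GTS2, for which the table names no place in the cell, had 62.7 RPKM with phosphate and 42.9 RPKM without it (log2 fold -0.54). GTS1, annotated as a chloroplast precursor, had 14.8 RPKM with phosphate and 14.4 RPKM without it (log2 fold -0.037, with 0.033 for equal RPKM sums and -0.23 to -0.20 by the other 3 scalings). GTS2 was 4.25 times as abundant as GTS1 in the replete library and 2.99 times in the deprived one.

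Genes for steps that follow from glutamyl-tRNA, and for a regulator of such a step, differed among themselves. GAT1, the amidotransferase subunit A gene, had 14.9 RPKM with phosphate and 7.70 RPKM without it (log2 fold -0.87). Plastid glutamyl-tRNA is also the starting point of chlorophyll and haem synthesis. HEMA, the glutamyl-tRNA reductase gene that opens that branch, had 91.2 RPKM with phosphate and 113 RPKM without it (log2 fold 0.30, the only one of these above 0). GSA, coding for the aminotransferase that follows it, had 195 and 116 RPKM (log2 fold -0.75). Cre10.g460050, coding for a form of FLU, an inhibitor of the reductase, had 77.6 and 55.1 RPKM (log2 fold -0.49).

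The remaining class I genes, for valine and cysteine, were not 2-fold different. The valyl-tRNA synthetase gene Cre12.g537100 had 22.4 RPKM with phosphate and 20.9 RPKM without it (log2 fold -0.10, with -0.03 for equal RPKM sums and -0.30 to -0.25 by the other 3 scalings). The cysteinyl-tRNA synthetase gene Cre23.g766000 had 7.25 RPKM with phosphate and 8.47 RPKM without it. Its log2 fold of 0.20 was the highest of the 12, and 54.8% of all measured genes had a lower one. With equal medians its fold was 0.01.

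**Figure D2:**
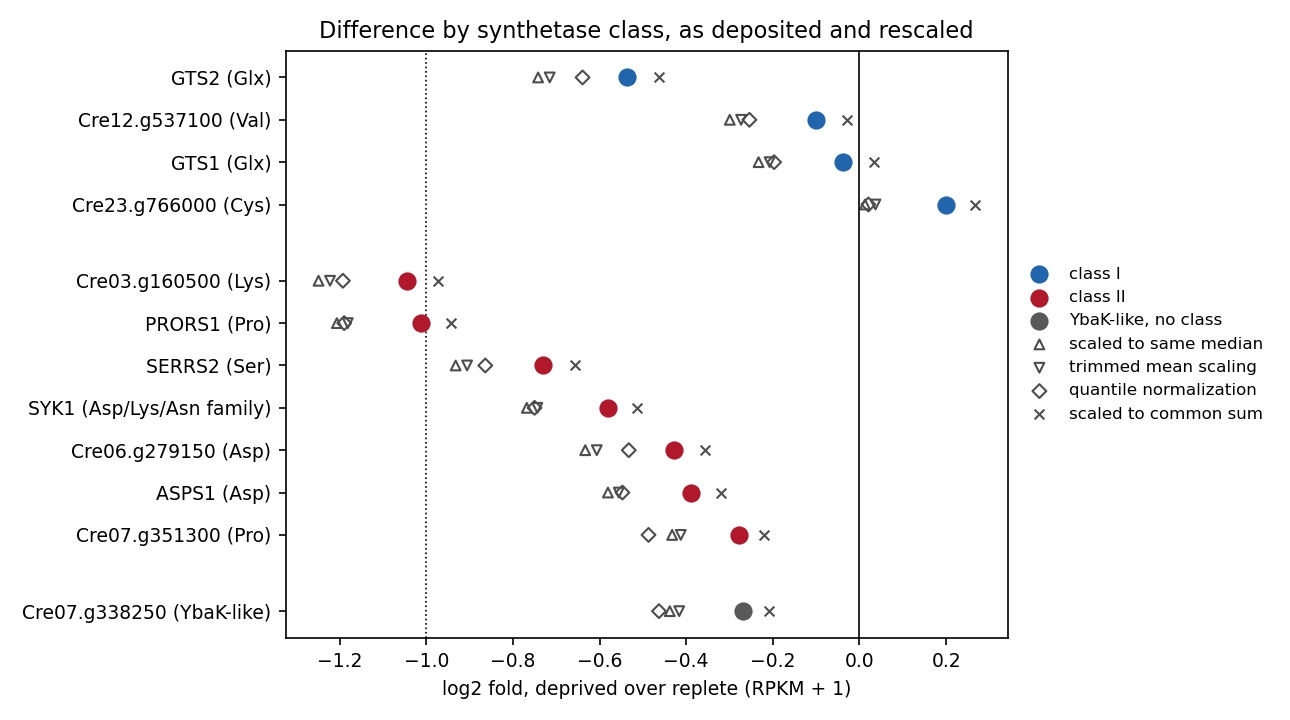
Log2 fold of each synthetase gene, deprived over replete with 1 RPKM added, grouped by enzyme class. Large dots show the values as deposited and small symbols those after 4 scalings, the solid line marks 0 and the dotted line marks 2-fold lower. All class II genes lie left of 0 by every scaling, and Cre03.g160500 and PRORS1 pass the dotted line except with equal RPKM sums.

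The size of the folds can be set beside an approximate counting error. The pattern of low values in the table looks as if each gene had received the same small number of extra counts, an inference that no source states. Read numbers needed a further assumption. The gene with the highest value among those holding only extra counts (160.719 RPKM with phosphate) was treated as 1 base long. On that footing 1 RPKM at an assumed transcript length of 1000 bases stood for about 12.4 reads (replete) and 14.3 reads (deprived). The 12 genes would then rest on 46 to 847 reads in the replete and 41 to 612 reads in the deprived library, and on more where transcripts are longer. Exact 95% binomial intervals of the log2 ratio without pseudocount lay wholly below 0 for 7 genes and covered 0 for 5, namely Cre07.g351300, Cre07.g338250, Cre12.g537100, GTS1 and Cre23.g766000. For Cre03.g160500 the interval was -1.24 to -0.91 and for PRORS1 -1.35 to -0.81. For GTS1 it was -0.34 to 0.25 and for Cre23.g766000 -0.17 to 0.65. These intervals cover counting error only and not the spread between cultures. They rest on the assumed lengths and on the deposited scale, and a scaling step would shift them. If the gene treated as 1 base long was longer, all read numbers would be lower and the intervals wider.

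Other genes that process or modify tRNA had a median nearer to 0. Of 27 such genes 24 passed the filter, with a median log2 fold of -0.12 and 13 below 0 (12 to 19 after the 4 scalings). Of the 24, 2 were at least 2-fold higher and 0 were 2-fold lower. Over all measured genes, 38% were below 0 as deposited and 33.2% to 52.5% after the scalings. At least 2-fold higher were 5.59% of all measured genes, and 1.64% were at least 2-fold lower. A few of the 27 are other kinds of gene whose annotation mentions tRNA, among them MSRA1, a methionine sulfoxide reductase gene, and MCD1, a factor for a chloroplast mRNA. The lowest folds were those of a peptidyl-tRNA hydrolase gene and of MTF1. Cre05.g230000, the hydrolase gene, whose enzyme recycles tRNA from stalled peptides, had 10.4 RPKM with phosphate and 4.82 RPKM without it (log2 fold -0.96). MTF1 codes for methionyl-tRNA formyltransferase, which makes the initiator tRNA of organelles, and had 8.89 and 4.74 RPKM (log2 fold -0.79). The highest folds were those of TRZ1, a nuclear RNase Z gene for trimming the tRNA 3' end, with 7.58 and 19.2 RPKM (log2 fold 1.23), and of the tRNA methyltransferase gene TRM2A with 7.93 and 17.6 RPKM (log2 fold 1.06).

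Translation factor genes were also mostly below 0. Of 34 factor genes 25 had a log2 fold below 0 and 6 were at least 2-fold lower, none at least 2-fold higher, and the median was -0.63. The shares over all measured genes were 38% below 0, 1.64% at least 2-fold lower and 5.59% higher. EIF3A had 36.7 RPKM with phosphate and 15.0 RPKM without it (log2 fold -1.24), and EIF3B had 60.7 and 25.3 RPKM (log2 fold -1.23), both coding for subunits of the initiation factor that prepares the small ribosomal subunit. Of the 10 genes in the table with an EIF3 symbol, a group chosen after the values were seen, 9 were below 0 and the median was -1.003. The exception, EIF3Z, annotated as only resembling such a subunit and not in the list, had 2.11 and 3.17 RPKM (log2 fold 0.42). The highest folds in the list were those of Cre16.g680350, described as having some similarity to the initiation factor SUI1 (6.82 and 13.4 RPKM, log2 fold 0.88), and ELF1G, an elongation factor 1 gamma gene (27.0 and 47.2 RPKM, log2 fold 0.79).

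The ribosomal protein lists lay on both sides of the synthetases. For 34 plastid ribosomal protein genes the median log2 fold was -1.15, with folds from -1.74 (PRPS6) and -1.59 (PRPL29) to -0.88 (PRPL27) and -0.62 (PRPS1). Cre03.g160500 and PRORS1 were the synthetase genes inside the range between PRPL29 and PRPL27, and SERRS2 lay between PRPL27 and PRPS1. For 73 cytosolic ribosomal protein genes the median was -0.24, with 63 below 0 (43 after quantile matching) and folds from -0.63 (RPL37a) and -0.55 (RPS24) to 0.23 (RPL19) and 0.54 (RPS27-B). For 37 mitochondrial ribosomal protein genes the median was -0.18, with 26 below 0 and folds from -0.88 (MRPL3) and -0.68 (MRPL11) to 0.23 (MRPL1) and 0.44 (MRPL36). None of the cytosolic or mitochondrial genes was 2-fold different as deposited. Of all measured genes 1.64% were at least 2-fold lower and 5.59% at least 2-fold higher. As deposited 86.3% of the cytosolic and 70.3% of the mitochondrial genes were below 0, against 38% of all measured genes. After quantile matching 43 of 73 cytosolic genes were below 0, beside 52.5% of all measured genes. The scalings gave 43 to 71 cytosolic and 24 to 32 mitochondrial genes below 0, and 33.2% to 52.5% of all measured genes. The differences between these lists were not tested.

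**Figure D3:**
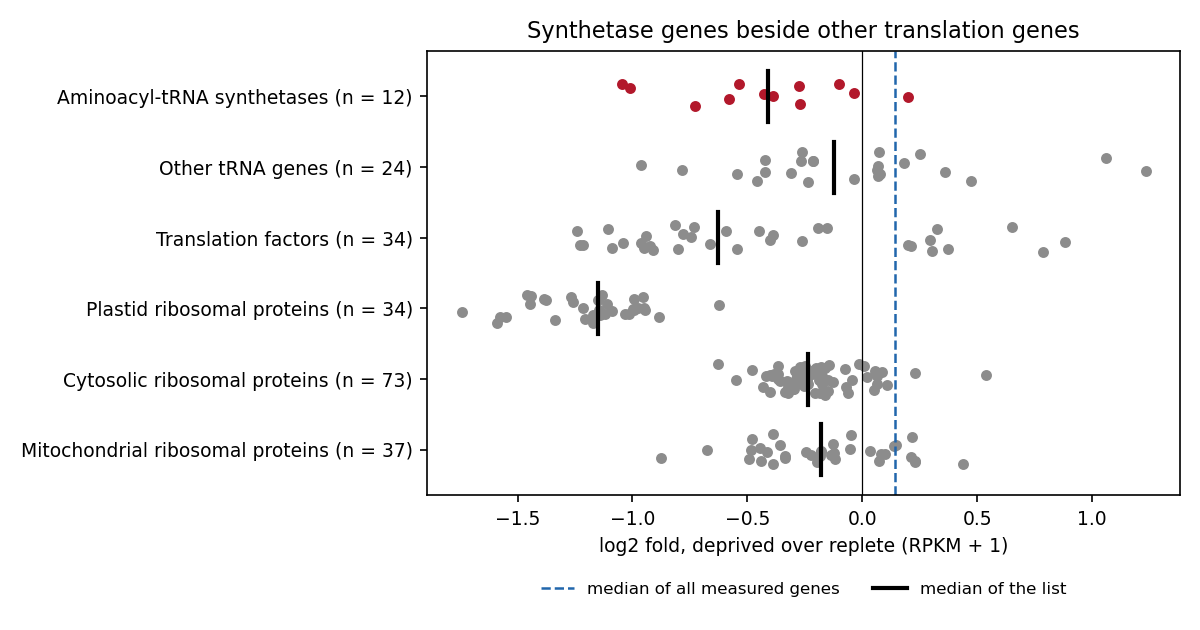
Log2 folds, deprived over replete with 1 RPKM added, of the 12 synthetase genes (red) and of the measured genes of 5 other translation lists (grey), 1 dot per gene with random vertical spread. Black bars are list medians and the dashed line is the median of all measured genes at 0.14; the synthetase median of -0.41 lies between that of the translation factors at -0.63 and that of the cytosolic ribosomal proteins at -0.24.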

How the data were processed

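The authors deposited RPKM values of both libraries in 1 table. Bowtie was used per the submitters' processing notes, which give no version. The build, annotation version and counting method were not given in the sources used here, so no coordinates are printed, and how reads of similar genes were divided is unknown. Columns were matched to libraries by the library codes in the labels. The added count was inferred from 1249 genes sharing 1 ratio (0.870) between the libraries, none of them a member; no source states it, and the number of 2 added counts (1 in each of 2 runs) is likewise inferred. Read numbers were set by treating the gene with the highest replete value at that ratio as 1 base long, which is also assumed. Members and lists were chosen with earlier results of these data known. Genes named were all members, and the 2 highest and 2 lowest folds of each other list, with exceptions stated. Enzyme classes were assigned by the amino acid named in the annotation, and SYK1 by its family. Scalings other than quantile normalization multiplied the deprived values only, so the pseudocount of 1 RPKM weighs slightly differently. Alternatives were 3 other pseudocount choices (0.1, 5 and none), 4 scalings, 2 other filters, removal of genes at the shared ratio, and narrower member rules. Calculations used Python 3.11.15, pandas 2.3.3, numpy 2.4.6 and scipy 1.17.1. The 2-fold calls and the scaling to equal medians were tested on simulated data. The other scalings, the inferred read numbers and the counting intervals were not.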

Additional observations from a re-analysis of the deposited data

How the results depend on the processing

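No paired analysis was possible because each condition had 1 library, and leaving out a replicate was impossible for the same reason. The 11 of 12 matched genes below 0 (10 of 11 without the YbaK-like gene) became 10 with equal RPKM sums, where GTS1 turned to 0.033 and the class I median to 0.0026, and no synthetase gene was at least 2-fold higher under any alternative run. The 2 genes at least 2-fold lower became 0 with equal sums and 0 with a pseudocount of 5 RPKM. Equal medians gave median log2 folds of -0.61 (synthetases), -0.27 (class I), -0.77 (class II), -0.26 (other tRNA genes), -0.69 (tetrapyrrole entry), -1.36, -0.44 and -0.34 (plastid, cytosolic and mitochondrial ribosomal proteins), -0.83 (translation factors) and -0.025 (all genes, 52.2% below 0, 503 at least 2-fold higher and 430 lower). The trimmed-mean factor gave, in the same order, -0.58, -0.24, -0.74, -0.24, -0.67, -1.33, -0.42, -0.33, -0.80 and -0.0027 (50.3% below 0, 399 lower). Quantile matching gave -0.54, -0.23, -0.75, -0.32 and -0.60, then -0.042 for cytosolic and -0.36 for mitochondrial ribosomal proteins and -0.030 for all genes (52.5% below 0, 512 higher and 395 lower). The 6 translation factors at least 2-fold different became 13, 11 and 11 by these 3 scalings, and the mitochondrial count of 0 became 1 by each of them and with a pseudocount of 0.1 RPKM or none. A pseudocount of 5 RPKM gave medians of -0.44 for class II and -0.48 for the factors, 0 other tRNA genes 2-fold different, and 286 higher and 115 lower genes in all. The count of higher genes was 1277 with 0.1 RPKM and 1376 without a pseudocount, where 356 were lower. Under a filter of 5 RPKM it was 511, and the median of the other tRNA genes was -0.23. Equal sums and a pseudocount of 5 RPKM moved the medians of the other tRNA genes and of mitochondrial ribosomal proteins towards 0. These medians were -0.061 and -0.046 for the other tRNA genes and -0.12 and -0.11 for mitochondrial ribosomal proteins. With equal sums the median of all genes moved away from 0, to 0.21. The cause of these shifts was not tested beyond the arithmetic of each step. Under the inferred read numbers depth would limit the weakest synthetase genes most, and the spread between cultures is unknown.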

Other observations

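The loci next to the synthetase genes were looked up by name in the RefSeq annotation of assembly Chlamydomonas_reinhardtii v5.5, which held 9 of the 12 genes and in which none of their 18 neighbours overlapped them. Of the 18 neighbours 13 passed the filter of a mean RPKM of at least 1, with a median log2 fold of 0.23, 10 above 0 and 3 below, beside a median of 0.14 and 62% above 0 over all measured genes. The lowest was -0.18 and the highest 2.37. The highest belonged to Cre03.g160550, a locus without description beside the lysyl gene Cre03.g160500, at 0.124 RPKM with phosphate and 4.79 RPKM without it. That replete value is so low that it may hold few or no reads beyond the inferred added counts, so the size of this fold is uncertain. The lysyl gene, at -1.04, sat beside a locus above 0, as were 62% of all measured genes. The other neighbour of the lysyl gene, PF15, a katanin subunit gene, had 3.99 and 4.16 RPKM (log2 fold 0.05). These loci were looked at after the member values were known.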
